A study of Mus musculus with 70 samples.

Results

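Glycolysis splits glucose into pyruvate in the cytosol, and the genes described here cover its entry, most of its course and its exit to lactate. Slc2a1 and Slc2a3 encode GLUT1 and GLUT3, which carry glucose across the plasma membrane, and the hexokinases Hk2 and Hk3 trap it as glucose-6-phosphate. Pfkl, the liver-type phosphofructokinase subunit, catalyses the committed step, Aldoa splits the resulting sugar bisphosphate, Gapdh, Pgk1 and Pkm carry the pathway on to pyruvate, and Ldha reduces pyruvate to lactate. Myeloid cells raise glycolysis when they are activated or move into tissue short of oxygen, and lymphocytes do so when they begin to divide. The 10 genes were chosen by name, as enzymes and transporters of this pathway, but with earlier results of these data known. They come from the 52636 genes of the count table, of which 38865 had a count in at least 1 of the 70 libraries. All 10 passed the filter on low counts in every comparison.

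The libraries came from C57BL/6J mice aged 7 to 8 weeks when chronic social defeat stress (CSDS) began, a procedure in which each mouse was attacked daily by an aggressive CD-1 mouse over 10 days. Defeated mice were split by a social interaction test into stress-susceptible (SUS) and resilient (RES) animals, and unstressed control (CON) mice lived in pairs on either side of a divider. Leukocytes from trunk blood, with red cells lysed, were stained for CD11b, Ly6C, Ly6G, B220 and CD90.2 and sorted as Ly6Chigh monocytes, which are classical monocytes, Ly6Clow monocytes, which patrol the vessel wall, B cells and T cells. Each of the 12 groups held 6 libraries, except 4 for Ly6Clow monocytes of CON mice, and 5 for B cells and for T cells of RES mice. Those of RES mice lack libraries 52 and 70, left out by the rule that set which genes and libraries are described here. The sample labels give the brain as source while the design text gives blood. The labels tie no library to a mouse, so the 4 cell types were treated as separate samples, and p-values measure the spread between libraries.

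Total counts ran from 19769835 to 67038231 per library over the 68 libraries used, and the share of them on the 10 genes together was 0.134 to 0.35% for Ly6Chigh monocytes, 0.112 to 0.151% for Ly6Clow monocytes, 0.0559 to 0.092% for B cells and 0.0689 to 0.122% for T cells. The markers of B cells, T cells and both monocyte types were highest in the cells so labelled, with a summed level of 6 B cell markers of 4447 to 5613 CPM (counts normalised to library size, scaled by the trimmed mean of M values) in B cells against at most 34.4 CPM elsewhere. The sums of 6 classical monocyte markers were 6589 to 13587 CPM in Ly6Chigh monocytes and 193 to 589 CPM in Ly6Clow monocytes. The Ly6Clow libraries also carried natural killer (NK) cell markers, 5 genes with a summed level of 276 to 901 CPM in CON, 363 to 976 CPM in SUS and 542 to 1473 CPM in RES mice, against at most 41.9 CPM in Ly6Chigh monocytes, 37.9 CPM in B cells and 231 CPM in T cells. A pair of ribosomal RNA-like genes, Gm23935 and Gm26917, accounted for 0.395 to 41.0% of counts per library.

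The promoters of the 5 genes that rose in Ly6Chigh monocytes of SUS mice, as described further on, are shown because these genes moved together. Each sequence is a 300-base window of the RefSeq annotation on GRCm38.p6, from 250 bases before to 50 bases after a transcription start, 5′ to 3′ on the gene's strand. Capitals mark ACGTG on either strand (CACGT when read on the other), the core of the hypoxia-response element, which also lies inside the E-box CACGTG. Where a gene had several windows, the one with the most matches is shown, a choice made after the matches were seen. Of the Aldoa windows with equal numbers, the more upstream one is shown.
Aldoa, chr7:126799205-126799504, minus strand: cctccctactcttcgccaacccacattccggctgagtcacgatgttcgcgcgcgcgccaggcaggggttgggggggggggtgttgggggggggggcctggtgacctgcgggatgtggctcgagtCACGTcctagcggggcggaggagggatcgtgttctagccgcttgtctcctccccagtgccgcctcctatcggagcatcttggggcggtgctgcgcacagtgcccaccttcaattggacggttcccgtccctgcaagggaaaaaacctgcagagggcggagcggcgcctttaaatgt
Gapdh, chr6:125165724-125166023, minus strand: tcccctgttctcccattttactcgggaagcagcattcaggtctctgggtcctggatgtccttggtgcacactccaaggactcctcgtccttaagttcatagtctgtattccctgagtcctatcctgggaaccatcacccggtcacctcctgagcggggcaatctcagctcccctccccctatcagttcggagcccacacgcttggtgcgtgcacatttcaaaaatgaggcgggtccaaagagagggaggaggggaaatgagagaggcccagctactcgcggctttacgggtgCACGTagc
Pgk1, chrX:106186850-106187149, plus strand: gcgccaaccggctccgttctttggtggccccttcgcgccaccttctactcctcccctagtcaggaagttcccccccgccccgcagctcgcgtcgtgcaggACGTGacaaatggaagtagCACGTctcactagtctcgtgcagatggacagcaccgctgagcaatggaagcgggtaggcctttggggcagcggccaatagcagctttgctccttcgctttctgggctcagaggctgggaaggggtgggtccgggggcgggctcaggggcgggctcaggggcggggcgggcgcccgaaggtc
Pkm, chr9:59656977-59657276, plus strand: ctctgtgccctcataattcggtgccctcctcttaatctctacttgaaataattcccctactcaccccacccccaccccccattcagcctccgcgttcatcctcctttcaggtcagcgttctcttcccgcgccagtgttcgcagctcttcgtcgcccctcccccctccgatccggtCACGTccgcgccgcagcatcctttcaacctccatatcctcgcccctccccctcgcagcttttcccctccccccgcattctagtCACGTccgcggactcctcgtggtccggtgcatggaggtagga
Ldha, chr7:46845554-46845853, plus strand: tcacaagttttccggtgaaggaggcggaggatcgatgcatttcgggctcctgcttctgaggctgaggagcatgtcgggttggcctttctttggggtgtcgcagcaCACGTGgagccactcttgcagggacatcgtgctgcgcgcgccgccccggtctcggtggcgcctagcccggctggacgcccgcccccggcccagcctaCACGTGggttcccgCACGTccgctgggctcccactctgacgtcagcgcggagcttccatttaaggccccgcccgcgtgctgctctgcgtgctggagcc

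Ldha held 5 matches, 4 of which were the overlapping pairs inside 2 E-boxes, Pgk1 and Pkm held 2 each, and Aldoa and Gapdh held 1 each. Of the 10 genes, 9 had a window in the table, 13 windows in all, and ACGTG occurred in 9 of the 13 windows and in 8 of the 9 genes, Pfkl being the exception. Over all 32851 windows of the same length, 19.62% held it, and 5886 of 27025 genes had it in a window. The Aldoa windows with equal numbers overlap and hold the same site, so their matches are not separate. The GC content of the windows of these genes ran from 49.0 to 67.3%, and the windows compared were not matched for it. The most upstream windows of Aldoa and Pkm and the downstream window of Ldha held none. The letters GGGCGG (the GC box, both strands) were in 8 of the 13 windows against 35.66% of all windows, TATAAA was in 1 window, that of Slc2a1, against 13.62%, and GCGTG, the other hypoxia-response core, in 5 against 32.39%. These matches describe the letters only.

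Several of these genes have processed pseudogenes, and reads that match more than 1 place are usually dropped from such counts. Of the 50-base words in the transcripts of Gapdh, 24.7% occurred exactly in other annotated genes, 213 of them pseudogenes, and those pseudogenes held 352607 counts over all libraries against 107657 for Gapdh itself. For Pgk1 53.9% of the words were shared, but the 5 pseudogenes held 5726 counts against 179281, and for Pkm, with 25.8% shared, 7 pseudogenes held 35422 counts against 1387237. Aldoa shared 6.43% and Ldha 9.03%. The level of Gapdh is therefore uncertain, and per kilobase of exon it stood below those of Aldoa and Pgk1, its neighbours in the pathway, in all 4 cell types of CON mice. The size of that gap also depends on the annotated exon length, 4133 bases for Gapdh, 2911 for Aldoa and 2244 for Pgk1. On the same strand, Gm49759 overlaps Pkm by 3887 bases, the pseudogene Gm4482 overlaps Slc2a3 by 742 bases and Mir1957a overlaps Slc2a1 by 66 bases. On the opposite strand, Slc2a1 overlaps Gm12868 (4235 bases) and Gm12867 (710 bases), Aldoa overlaps Fam57b (3084 bases), Hk2 overlaps Gm17034 (3007 bases), and Gapdh and Hk3 overlap Iffo1 and Unc5a by 68 and 34 bases, while the strand setting of the counting was not given in the sources used here.

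In CON mice, the largest differences of the 10 genes between cell types were those of Hk2, Hk3 and Slc2a3. Levels of different genes are compared as CPM per kilobase of exon, so their order depends on the annotated exon length. In Ly6Chigh monocytes, Pkm stood highest at 139.5 ± 13.7 (SD, n = 6), followed by Aldoa at 79.4 ± 4.33, while Pgk1, Hk2 and Ldha, at 34.1 ± 5.08, 34.0 ± 3.99 and 32.1 ± 3.49, did not differ beyond their spread. Hk3 followed at 24.0 ± 5.08, then Gapdh at 9.81 ± 2.12, Slc2a1 at 7.21 ± 1.19 and Pfkl at 5.57 ± 1.38, which overlapped in turn, and Slc2a3 was lowest at 0.807 ± 0.318. In Ly6Clow monocytes, the order began with Pkm at 77.3 ± 4.82 (n = 4), Aldoa at 52.6 ± 6.35, Ldha at 35.6 ± 6.70 and Pgk1 at 23.2 ± 2.92.

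In lymphocytes the order changed. In B cells, Aldoa led at 73.6 ± 6.05 CPM per kilobase (n = 6), ahead of Pkm at 50.6 ± 4.73 and Ldha at 33.4 ± 4.56. In T cells, Ldha, Pkm and Aldoa stood close together, at 60.8 ± 9.23, 56.8 ± 6.26 and 46.5 ± 5.52. Hk2 and Hk3 were the lowest of the 10 in both, with Hk2 at 0.867 ± 0.373 in B cells and 0.536 ± 0.301 in T cells.

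**Figure D1:**
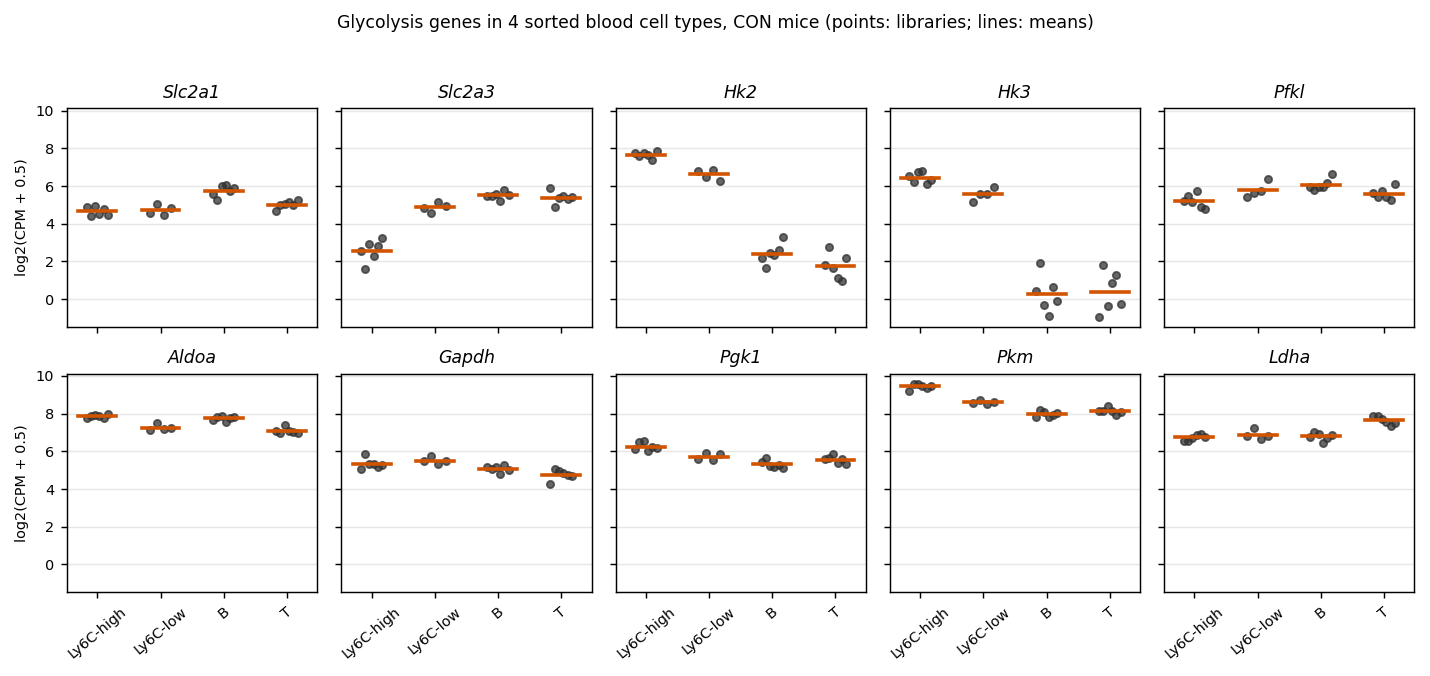
Level of each gene in CON mice, as log2(CPM + 0.5) on the vertical axis, in the 4 sorted cell types on the horizontal axis; points are libraries (6 per cell type, 4 for Ly6Clow monocytes) and lines are means. Hk2 and Hk3 were high in monocytes and near the floor in lymphocytes, Slc2a3 ran the other way, and the enzymes from Aldoa to Ldha differed less.

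Between Ly6Chigh and Ly6Clow monocytes of CON mice, 2 of the 10 genes were called (adjusted p < 0.05 and an absolute log2 fold change over 1), beside 11.2% of the 21032 genes tested. Hk2 was at 165 to 234 CPM (median 204 CPM) in Ly6Chigh monocytes and at 77.5, 90.1, 111 and 116 CPM in the 4 Ly6Clow libraries, higher by 1.03 on the log2 scale (SE 0.33, adjusted p = 0.0317, edgeR quasi-likelihood test with Benjamini-Hochberg adjustment). Slc2a3 was lower, at 2.58 to 9.14 CPM (median 5.96 CPM) against 23.3, 28.5, 30.2 and 35.7 CPM, with a log2 fold change of -2.34 (SE 0.23, adjusted p = 1.69e-08). The groups did not overlap for either gene, but the share of all genes without overlap was not counted. All 5 NK cell markers were also lower in Ly6Chigh than in Ly6Clow monocytes, with a median log2 fold change of -5.47, and the mean level of Slc2a3 was 45.3 CPM in B cells and 42.2 CPM in T cells. The part of NK cells or other lymphocytes in these differences was not tested. Pkm, Aldoa and Pgk1 were also higher in Ly6Chigh monocytes, with log2 fold changes of 0.84, 0.59 and 0.55, and Pfkl was lower, at -0.60, all with an adjusted p below 0.05 but under the fold threshold.

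Against lymphocytes, Hk2 and Hk3 set monocytes apart. Hk1, another hexokinase gene, was not among the 10 genes, so these values do not give the level of the whole hexokinase step. Ly6Chigh monocytes differed from B cells in 6 of the 10 genes, beside 33.1% of all genes tested, and from T cells in 4, beside 32.8%. Hk2 ranged from 2.67 to 9.24 CPM among B cell libraries and from 1.45 to 6.34 CPM among T cell libraries, so it was 5.33 (SE 0.35) and 5.98 (SE 0.36) higher on the log2 scale in Ly6Chigh monocytes. Hk3, the hexokinase of myeloid cells, stood at 67.3 to 112 CPM in Ly6Chigh monocytes and at 0.0331 to 3.24 CPM in B cells, with a log2 fold change of 6.57 (SE 0.79). Its lymphocyte libraries held as few as 1 count, so the size of this difference depends on very small numbers. Pkm was higher than in B cells by 1.50 (SE 0.09) and than in T cells by 1.30 (SE 0.09), and Pgk1 was higher than in B cells by 1.00 (SE 0.13).

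The transporters went the other way. Slc2a3 was lower in Ly6Chigh monocytes than in B cells, with a log2 fold change of -2.92 (SE 0.22), and than in T cells, with -2.85 (SE 0.22). Slc2a1 was lower than in B cells, at -1.06 (SE 0.15), while its difference from T cells was -0.34 (SE 0.15, adjusted p = 0.0615). The adjusted p of every called difference between Ly6Chigh monocytes and lymphocytes was 1.27e-06 or less, and none of these groups overlapped. The share of all genes without overlap between cell types was not counted, so whether the lack of overlap sets these genes apart is not known.

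In Ly6Clow monocytes, Hk2 and Hk3 were the 2 genes called against B cells, beside 30.3% of all genes, and also the 2 called against T cells, beside 28.5%. The log2 fold changes of Hk2 were 4.29 (SE 0.34) and 4.95 (SE 0.35), and those of Hk3 were 5.68 (SE 0.78) and 5.31 (SE 0.76). Between B and T cells, 0 of the 10 genes were called by edgeR and 0 by DESeq2, beside 20.2% of all genes, while 7 had an unadjusted p below 0.05. Under an adjusted p alone, 3 passed: Ldha was higher in T cells (log2 fold change of B over T -0.90, SE 0.12), and Aldoa and Slc2a1 were higher in B cells (0.63 and 0.72). The T cell level of Ldha, 160 to 237 CPM, did not overlap with that of B cells, 86.3 to 129 CPM. Here too, the share of all genes without overlap was not counted.

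Among the rest of the pathway, the named genes of highest level repeated parts of this layout in CON mice. Eno1 (enolase) had means of 456, 312, 253 and 297 CPM in Ly6Chigh monocytes, Ly6Clow monocytes, B cells and T cells, and Gpi1, which follows hexokinase, had 321, 156, 221 and 197 CPM. Of the glycogen phosphorylases, Pygl had means of 271 and 140 CPM in the monocytes and 1.85 and 1.90 CPM in B and T cells, whereas Pygb had 54.7 to 89.8 CPM in all 4. The transporter Slc2a6 had a mean of 98.6 CPM in Ly6Clow monocytes and 4.41 CPM in T cells, and Slc2a9 had 10.5 to 20.3 CPM.

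Tkt and Taldo1, of the pentose phosphate pathway, had 373 and 416 CPM in Ly6Chigh monocytes and 121 and 84.9 CPM in T cells. Pdk1, a kinase that shuts off pyruvate dehydrogenase, had a mean of 219 CPM in T cells and 9.75 CPM in Ly6Chigh monocytes, a log2 fold change of -4.49 (SE 0.32, adjusted p = 1.82e-10), and Pdha1, a subunit of that dehydrogenase, had 53.4 to 105 CPM. Txnip, which restrains glucose uptake, had 275 CPM in Ly6Clow monocytes and 422 to 435 CPM in the others, and Arnt, the partner of the hypoxia-inducible factors, had 69.5 to 107 CPM.

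In Ly6Chigh monocytes, genes of the middle and the end of the pathway were higher in SUS than in CON mice. Of the 10 genes, 5 rose against CON mice (adjusted p < 0.05) and 0 fell, beside 8.78% of all 16955 genes that rose, and the median log2 fold change of the 10 was 0.72 against -0.05 over all genes tested. With a log2 fold change over 1 asked as well, 2 genes passed, Ldha and Aldoa, beside 2.28% of all genes. Those that rose were Aldoa, Gapdh, Pgk1, Pkm and Ldha. The transporters, both hexokinases and Pfkl did not pass. In sorted bulk samples, fewer cells of a type and less RNA per cell cannot be told apart.

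The level of Aldoa ran from 217 CPM over a median of 232 CPM to 247 CPM in CON mice, from 289 over 448 to 843 CPM in SUS mice, and from 259 over 375 to 577 CPM in RES mice. The CON libraries lay close together and below every library of stressed mice. The log2 fold change of SUS over CON mice was 1.03 (SE 0.22, adjusted p = 0.00359), and that of RES over CON mice was 0.73 (SE 0.21, adjusted p = 0.0485).

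The level of Ldha was 93.1 to 122 CPM (median 107 CPM) in CON mice, 147 to 421 CPM (median 233 CPM) in SUS mice and 124 to 235 CPM (median 176 CPM) in RES mice. All libraries of stressed mice again stood above all CON libraries. Ldha had the highest fold change of the 10 genes in SUS mice, 1.19 on the log2 scale (SE 0.22, adjusted p = 0.00168). In RES mice, its log2 fold change of 0.72 (SE 0.22) had an adjusted p of 0.0529.

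Pkm, the most abundant of the 10 genes, was at 589.5 to 771 CPM (median 696 CPM) in CON mice, 835 to 2253 CPM (median 1347 CPM) in SUS mice and 799 to 1673 CPM (median 1126 CPM) in RES mice. The CON libraries did not overlap with either stressed group. Its log2 fold changes were 0.96 (SE 0.20, adjusted p = 0.00379) for SUS and 0.71 (SE 0.20, adjusted p = 0.0429) for RES mice.

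Pgk1 was at 64.3 to 92.0 CPM (median 72.7 CPM) in CON mice, 100.1 to 217 CPM (median 148 CPM) in SUS mice and 79.4 to 169.5 CPM (median 120.05 CPM) in RES mice. The SUS libraries did not overlap with CON, and 5 of 6 RES libraries lay above all CON libraries. Its log2 fold changes were 0.99 (SE 0.19, adjusted p = 0.00233) for SUS and 0.68 (SE 0.19, adjusted p = 0.0421) for RES mice.

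Aldoa, Pgk1, Pkm and Ldha were thus the 4 genes of the 10 whose SUS libraries all lay above all CON libraries, beside 4.68% of the genes tested. For RES mice this held for Aldoa, Pkm and Ldha, beside 2.85% of the genes tested. The spread was wider in stressed mice than in CON mice, with a coefficient of variation for Aldoa of 5.46% among CON libraries, 40.7% among SUS and 32.8% among RES libraries.

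Gapdh, whose counts are affected by its pseudogenes, was at 33.0 to 57.6 CPM (median 38.5 CPM) in CON mice and 38.2 to 112 CPM (median 64.6 CPM) in SUS mice, and 5 of 6 SUS libraries lay above all CON libraries. Its log2 fold change was 0.73 (SE 0.22, adjusted p = 0.0272) in SUS mice, and 0.38 (SE 0.22, adjusted p = 0.324) in RES mice at 36.4 to 70.9 CPM. The summed level of the 209 pseudogenes of the count table that share its words was 128 to 148 CPM in CON mice, 179 to 432 CPM in SUS mice and 144 to 312 CPM in RES mice. The pseudogene sums of SUS and CON mice did not overlap.

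**Figure D2:**
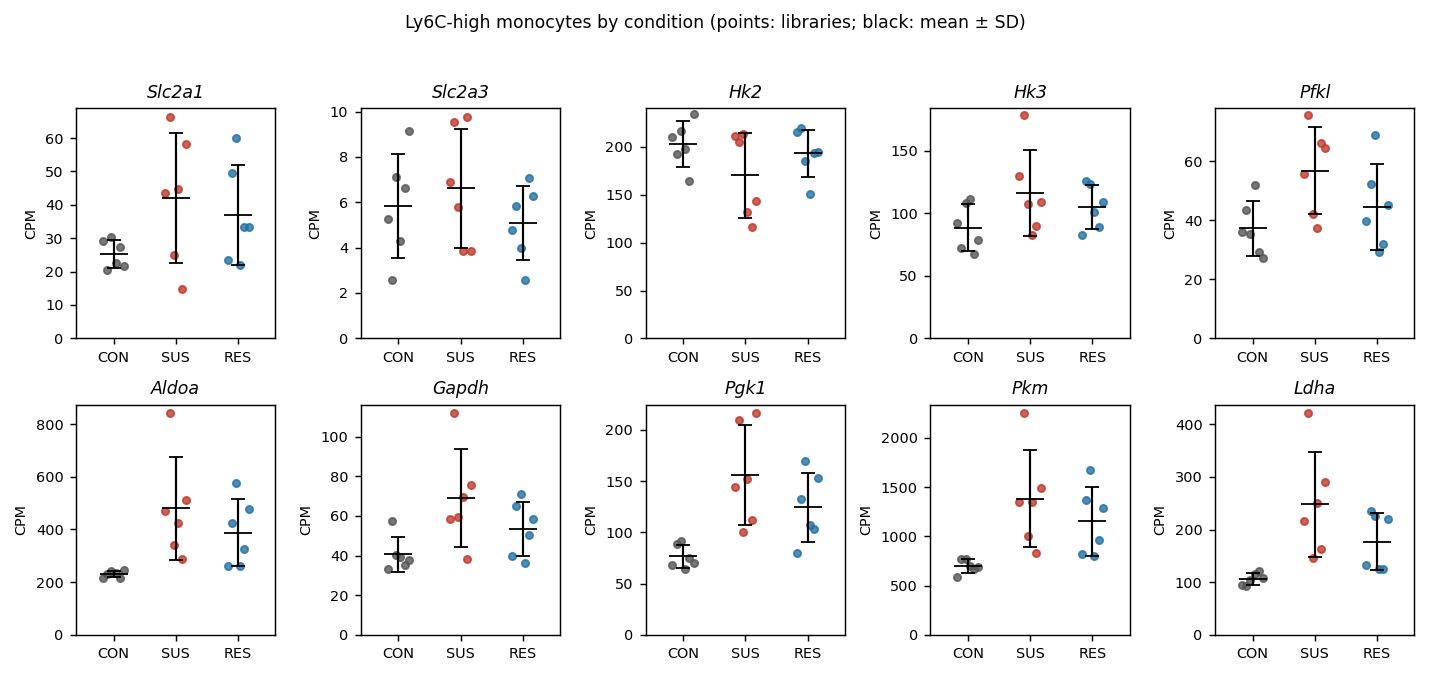
Level of each of the 10 genes in Ly6Chigh monocytes, as CPM on the vertical axis from 0, by condition; points are libraries (6 per condition) and black marks are the mean ± SD. Aldoa, Pgk1, Pkm and Ldha show a tight CON group and higher, widely spread SUS libraries, with RES libraries between or overlapping them, while Hk2 does not rise.

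The upper part of the pathway moved less. Hk2 was at 165 to 234 CPM in CON mice and 117 to 213 CPM in SUS mice, and 3 of 6 SUS libraries lay below all CON libraries, with a log2 fold change of -0.28 (SE 0.15, adjusted p = 0.233). Hk3, at 67.3 to 112 CPM in CON and 83.0 to 178 CPM in SUS mice, had a log2 fold change of 0.37 (SE 0.18, adjusted p = 0.189). Pfkl, at 27.2 to 51.9 CPM in CON and 37.3 to 75.4 CPM in SUS mice, had 0.58 (SE 0.21, adjusted p = 0.0768).

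Slc2a1 spanned 14.8 to 66.3 CPM in SUS mice against 20.4 to 30.3 CPM in CON mice. The SUS libraries lay on both sides of the CON range, 4 above it and 1 below it, with a log2 fold change of 0.70 (SE 0.28, adjusted p = 0.107). Slc2a3 was low in all groups, at 2.57 to 9.78 CPM, with a log2 fold change of 0.17 (SE 0.36, adjusted p = 0.819) in SUS mice, and its 95% interval of -0.54 to 0.87 leaves changes in either direction possible.

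In RES mice, 3 of the 10 genes rose against CON mice, beside 3.71% of all genes, and 0 of the 10 passed with a log2 fold change over 1 in addition, beside 0.531%. Those that rose were Aldoa, Pgk1 and Pkm, each with an adjusted p between 0.0421 and 0.0485. The calls in RES mice depended on single libraries: without any 1 of 12 of the 18 libraries, Aldoa and Pkm no longer passed (adjusted p up to 0.146 and 0.132), and Pgk1 no longer passed without any 1 of 10 of them. The comparisons of SUS and of RES mice share their CON libraries.

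Between SUS and RES mice, 0 of the 10 genes differed by edgeR and 0 by DESeq2, beside 0.0059% of all genes, and 1 gene, Ldha, had an unadjusted p below 0.05. The difference of Ldha was 0.47 on the log2 scale (SE 0.22), and the differences of Aldoa, Pgk1 and Pkm were 0.30, 0.31 and 0.25, each with an SE of 0.19 to 0.21. All 10 genes but Hk2 had a higher fitted level in SUS than in RES mice. These directions are not separate observations. Aldoa, Gapdh, Pgk1, Pkm and Ldha varied together over the 18 Ly6Chigh libraries, with Pearson's r of 0.851 to 0.988. The 95% interval of Aldoa ran from -0.12 to 0.72, that of Pgk1 from -0.07 to 0.68 and that of Pkm from -0.14 to 0.64.

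**Figure D3:**
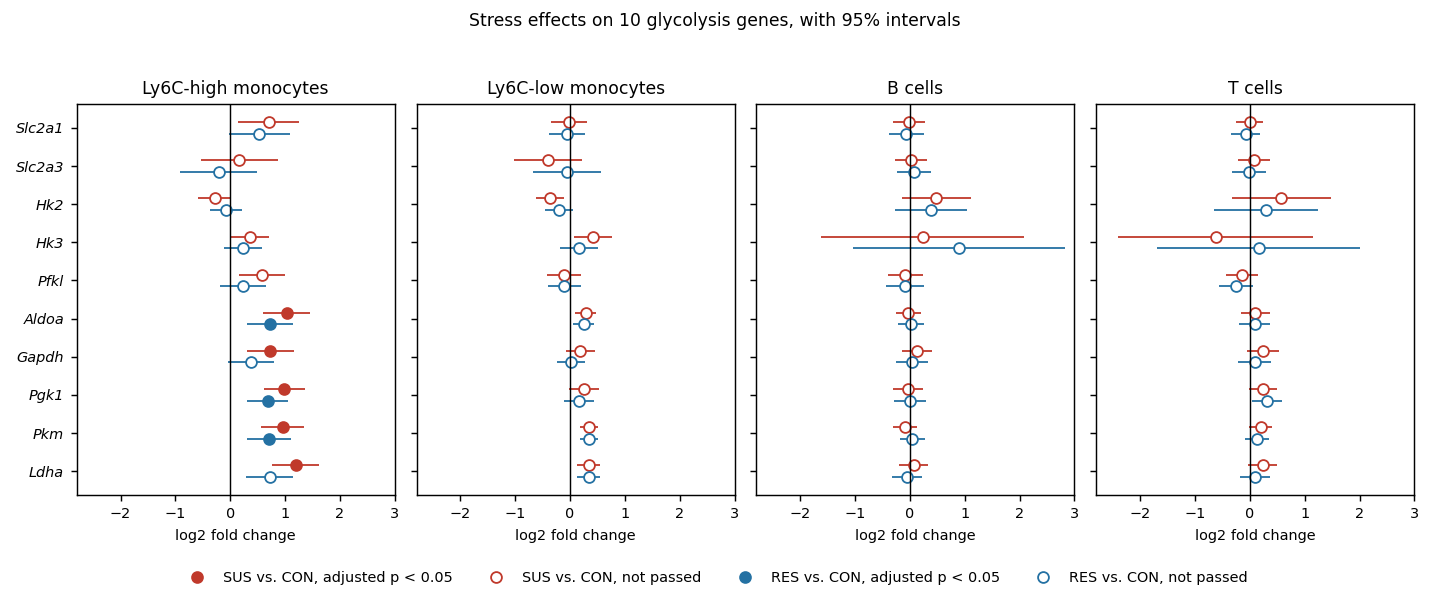
Log2 fold changes of SUS (red) and RES (blue) mice over CON mice on the horizontal axis for the 10 genes on the vertical axis, in the 4 cell types; lines are 95% intervals and filled points have an adjusted p below 0.05. Filled points occur in Ly6Chigh monocytes, 5 for SUS and 3 for RES mice, and in no other cell type.

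Red cell genes moved with these differences. All 7 red cell markers, among them the hemoglobin genes Hba-a1 and Hbb-bs and the heme synthesis gene Alas2, rose in Ly6Chigh monocytes of SUS mice, with a median log2 fold change of 2.09, and 2 of the 7 rose in RES mice. Their summed level was 343 to 1216 CPM in CON mice, 1098 to 8996 CPM in SUS mice and 1077 to 4351 CPM in RES mice, and no marker was at 0 in a whole group. Of 6 platelet markers, 1 (Ppbp) rose in SUS mice and none did in RES mice, with sums of 6.15 to 10.4 CPM in CON, 5.86 to 51.3 CPM in SUS and 7.66 to 19.7 CPM in RES mice. Of 7 neutrophil markers tested, 0 passed, with sums of 11.8 to 538 CPM in CON and 42.1 to 1735 CPM in SUS mice. Ly6g, 1 of the 8 neutrophil markers listed, had a mean of 0.258 CPM in SUS mice, where the sum of the list reached 1735 CPM. The part of neutrophil RNA in these differences was not tested.

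Genes of other marker lists moved as well. Of 6 hematopoietic progenitor markers, 1 (Prtn3) rose in SUS mice, with 1.80 to 2.67 CPM in CON and 11.6 to 45.8 CPM in SUS mice and no overlap, and the summed level of the list was 5.25 to 36.1 CPM in CON and 12.1 to 147 CPM in SUS mice. The other genes of this list were split. Mean levels of Mpo, Elane and Ctsg were 15.1, 14.0 and 2.34 CPM in SUS against 6.53, 4.03 and 1.47 CPM in CON mice. Those of Kit and Cd34 were lower in SUS mice, at 0.470 and 0.589 CPM against 0.670 and 1.26 CPM. Of 6 classical monocyte markers, 4 rose in SUS mice, with a summed level of 6589 to 7957 CPM in CON and 8877 to 13587 CPM in SUS mice. Chil3, one of them, was at 957 to 2351 CPM in CON and 3453 to 5597 CPM in SUS mice. With the progenitor marker level as a covariate, Aldoa, Pgk1, Pkm and Ldha still passed in SUS mice, with log2 fold changes of 0.95, 0.95, 0.90 and 1.11, and Gapdh had an adjusted p of 0.0594. The part of these cells in the rise was not tested.

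With the red cell marker level as a covariate, 0 of the 10 genes passed in SUS mice, the log2 fold changes of Aldoa, Pgk1, Pkm and Ldha fell to 0.31, 0.47, 0.32 and 0.48, and 1 of the 16955 genes passed at all. With the platelet marker level as a covariate, chosen after the data were seen, 0 of the 10 passed, the 4 log2 fold changes were 0.61, 0.71, 0.60 and 0.72, and 17 genes of all tested passed, 15 higher and 2 lower. Without library 14, the SUS library highest in both marker sums and in Aldoa, Pkm and Ldha, these 4 genes still passed, whereas Gapdh had a log2 fold change of 0.50 (adjusted p = 0.102). Among RES mice, library 18 had the highest levels of Aldoa, Pgk1 and Pkm at a red cell sum of 1864 CPM, while library 6, with the highest red cell sum, 4351 CPM, had 325 CPM of Aldoa. Among B cell libraries, the red cell sums were 1336 to 7887 CPM in CON mice and 3047 to 12824 CPM in SUS mice, and none of the 10 genes passed there. The part of red cell or platelet RNA in the rise was not tested.

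**Figure D4:**
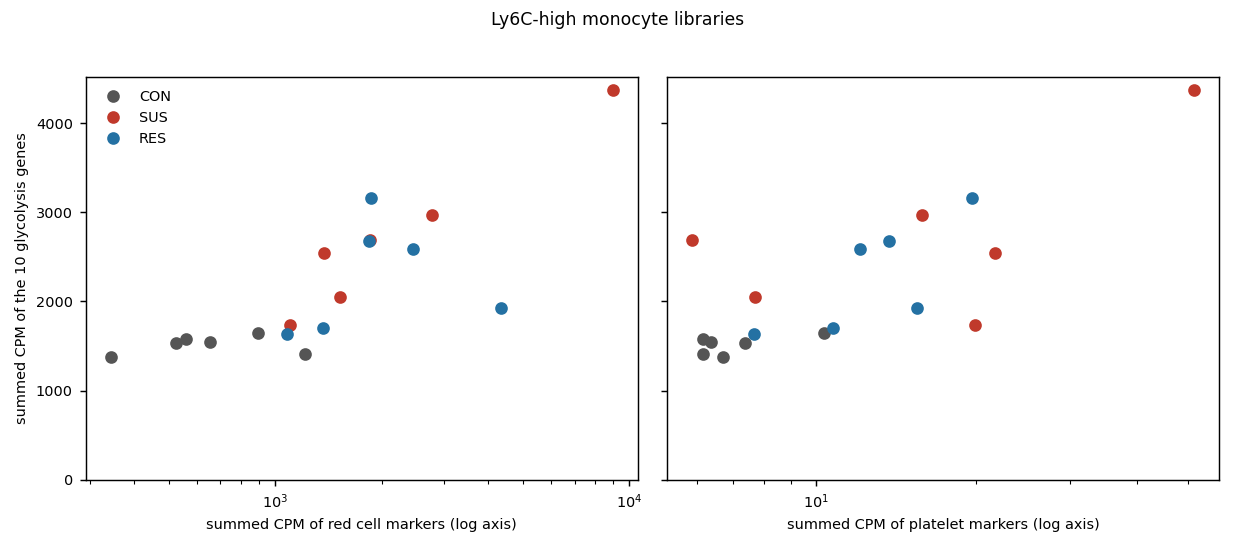
Summed CPM of the 10 glycolysis genes on the vertical axis against the summed CPM of 7 red cell markers (left) and of 6 platelet markers (right) on log horizontal axes, 1 point per Ly6Chigh library. The CON libraries lie at 1375 to 1647 CPM on the vertical axis, at low marker sums, and the SUS library at 4373 CPM is highest on all 3 measures.

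The other genes of glucose metabolism are given by list, each to be read against the 8.78% of all genes that rose in SUS mice and the 3.71% that rose in RES mice. Of 13 other glycolytic enzymes tested among 20 listed, 5 rose in Ly6Chigh monocytes of SUS mice and 0 fell, with a median log2 fold change of 0.73. Named by the smallest p, Pgam1 had a log2 fold change of 0.90 (SE 0.18), Eno1 0.97 (SE 0.20), Tpi1 0.96 (SE 0.22) and Gpi1 0.81 (SE 0.19), with adjusted p between 0.00261 and 0.00874. The level of Eno1 went from 456 ± 55.9 CPM in CON mice to 914 ± 306 CPM in SUS mice (mean ± SD, n = 6 each), and the groups did not overlap. In RES mice, 2 of the 13 rose, Eno1 (0.76, SE 0.20, adjusted p = 0.0306) and Ldhb (0.75, SE 0.20, adjusted p = 0.0322).

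Of 8 genes of the pentose phosphate pathway, which draws on glucose-6-phosphate to make NADPH, 4 were higher in SUS than in CON mice, and 3 were higher for RES mice. Taldo1 had the smallest p in SUS mice, with a log2 fold change of 0.92 (SE 0.17, adjusted p = 0.00177), followed by Tkt (0.77), Pgd (0.72) and G6pdx (0.61), the entry enzyme. In RES mice, Taldo1, Tkt and Pgd rose by 0.74, 0.65 and 0.61. The median log2 fold changes of the 8 were 0.59 and 0.48.

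Of 10 tested genes of glycogen handling and gluconeogenesis, 3 rose in SUS mice: Pygl (0.66, SE 0.15), Pgm2 (0.65, SE 0.16) and Pgm1 (1.01, SE 0.26), which release and convert stored glucose. Of these, Pygl and Pgm1 also passed in RES mice. Among 10 regulators of flux, Bpgm rose in both, by 1.50 (SE 0.38, adjusted p = 0.0121) in SUS and 1.32 (SE 0.38, adjusted p = 0.0446) in RES mice. Bpgm encodes the bisphosphoglycerate mutase best known from red cells.

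None of the 12 tested genes of lactate and pyruvate handling and none of 5 tested other sugar transporters passed in either stressed group by edgeR or by DESeq2, although 3 and 1 of them had an unadjusted p below 0.05 for SUS mice, and 3 and 2 for RES mice. Their median log2 fold changes in SUS mice were 0.31 for both lists. In lists this short, a count of 0 is near what the share over all genes gives, and differences between lists were not tested. Between SUS and RES mice, 0 genes of any of these lists passed by edgeR. With the red cell covariate, SUS mice differed from CON mice in 1 of all genes and RES mice in 0, so nearly all of these calls are lost with it.

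**Figure D5:**
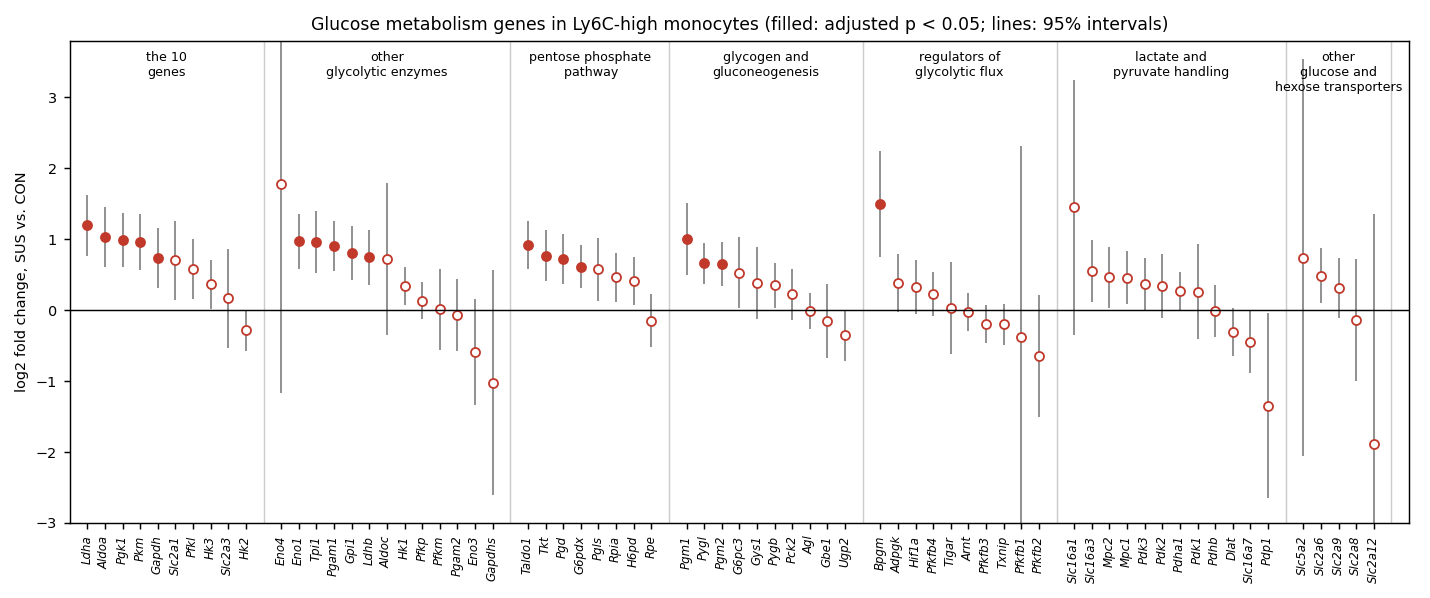
Log2 fold change of SUS over CON mice in Ly6Chigh monocytes on the vertical axis for every tested gene of the glucose metabolism lists, grouped by list; lines are 95% intervals, filled points have an adjusted p below 0.05, and the intervals of Eno4, Pfkfb1 and Slc2a12 run past the axis. Beside the 10 genes, filled points number 5 among the other glycolytic enzymes, 4 in the pentose phosphate pathway, 3 in glycogen handling and 1 among the regulators, and 0 among the lactate handling genes and other transporters.

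In Ly6Clow monocytes, no gene passed by edgeR, and Pkm, Ldha and Aldoa had the smallest p-values among the positive differences. By edgeR, 0 of the 10 genes passed in SUS mice, beside 0.241% of 19521 genes tested, and 0 in RES mice, beside 0.0256%, while 5 and 3 had an unadjusted p below 0.05. DESeq2 called 1 gene in each, Pkm, with an adjusted p of 0.0219 and 0.0279. The level of Pkm was 364, 373, 389 and 419 CPM in the 4 CON libraries, 403 to 534 CPM (median 508 CPM) in SUS mice and 439 to 566 CPM (median 495 CPM) in RES mice, with edgeR log2 fold changes of 0.35 (SE 0.09, adjusted p = 0.0834) and 0.34 (SE 0.09, adjusted p = 0.149). The RES group thus stood clear of the CON group, and 5 of 6 SUS libraries did. The share of all genes that do so was not counted in these cells, where the CON group held only 4 libraries. Without SUS library 22, Pkm passed in SUS mice (0.39, adjusted p = 0.0208).

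Ldha in Ly6Clow monocytes had log2 fold changes of 0.34 in both stressed groups (SE 0.10, adjusted p = 0.216 and 0.241), and Aldoa had 0.28 and 0.25. Hk2 was at 77.5 to 116 CPM in CON mice and 56.2 to 97.1 CPM in SUS mice, with a log2 fold change of -0.37 (SE 0.13, adjusted p = 0.296). SUS and RES mice did not differ in any of the 10 genes by edgeR or DESeq2, beside 0% of all genes, and 0 had an unadjusted p below 0.05. The red cell sums of these libraries were 295 to 1260 CPM in CON, 860 to 2699 CPM in SUS and 878 to 3921 CPM in RES mice, and the medians of their NK cell sums were 571, 533 and 792 CPM.

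In B cells, no gene passed. By edgeR and by DESeq2, 0 passed in SUS mice, beside 0.00568% of 17620 genes, 0 in RES mice, beside 0%, and 0 between SUS and RES mice, beside 0%. No gene had an unadjusted p below 0.05 in any of these 3 comparisons. Pkm, at 227 to 288 CPM in CON and 202 to 297 CPM in SUS mice, had a log2 fold change of -0.09, with a 95% interval of -0.31 to 0.13, and Ldha had 0.07, with an interval of -0.19 to 0.33.

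In T cells, likewise, 0 of the 10 genes passed by edgeR or DESeq2 in SUS mice, beside 0.0424% of 18860 genes, 0 in RES mice, beside 0%, and 0 between them, beside 0%. Pgk1 in RES mice was the 1 gene with an unadjusted p below 0.05, at 45.2 to 79.4 CPM against 39.1 to 57.7 CPM in CON mice (log2 fold change 0.31, SE 0.14, adjusted p = 1.00). Ldha, at 160 to 237 CPM in CON and 163 to 293 CPM in SUS mice, had 0.23 (SE 0.14, adjusted p = 0.999), with 4 of 6 SUS libraries above all CON libraries.

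Whether the stress effect differed between cell types was tested directly, as the log2 fold change in Ly6Chigh monocytes minus that in each other cell type. For SUS mice, the effect was larger than in B cells for 4 of the 10 genes, beside 6.18% of 24248 genes: Ldha by 1.16 (SE 0.24), Aldoa by 1.09 (SE 0.23), Pkm by 1.08 (SE 0.20) and Pgk1 by 1.08 (SE 0.22), with adjusted p of 0.00211 or less. Against T cells, the same 4 genes passed, beside 3.22% of all genes, with differences of 0.98, 0.95, 0.78 and 0.78 and adjusted p of 0.0141 to 0.0385. In a fit of those 2 cell types alone, 0 passed against T cells. Against Ly6Clow monocytes, 0 passed by edgeR or DESeq2, beside 0.363% of all genes, although 7 had an unadjusted p below 0.05 and the difference of Ldha was 0.87 (SE 0.25, adjusted p = 0.0806).

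For RES mice, 0 of the 10 genes differed from Ly6Clow monocytes, B cells or T cells by edgeR or DESeq2, beside 0.099%, 1.65% and 0.713% of all genes, and 1, 5 and 4 had an unadjusted p below 0.05. The differences of Ldha were 0.37, 0.79 and 0.64 on the log2 scale.

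Across the 68 libraries, the genes closest in pattern to each of the 10, by Pearson's r of log2(CPM + 0.5) among 8125 other protein-coding genes, mostly followed cell type. Hk2 was closest to Rrbp1 (r = 0.978) and Soat1 (0.970), Hk3 to Nat8l (0.970) and Nlrp1a (0.970), and Slc2a3 to Lax1 (0.952) and Prag1 (0.949). Pkm was closest to Actg1 (0.978) and Eno1 (0.967), Pgk1 to Eno1 (0.954) and Tmem50a (0.942), and Aldoa to Arpc3 (0.943) and Cope (0.943). Lower values were found for Gapdh with Aup1 (0.864) and Nmt1 (0.863), for Ldha with Kcnab2 (0.846) and Arhgap1 (0.810), for Slc2a1 with Snrnp200 (0.831) and Ctbp1 (0.827), and for Pfkl with Mknk2 (0.709) and Tor4a (0.702). These values are descriptions, since libraries of a cell type share its profile.

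Among themselves, Aldoa, Gapdh, Pgk1, Pkm and Ldha were closest in Ly6Chigh monocytes. Over the 18 libraries there, r of the 10 pairs ran from 0.851 to 0.988, against 0.481 to 0.876 over the 16 Ly6Clow libraries, 0.439 to 0.875 over the 17 B cell libraries and 0.227 to 0.885 over the 17 T cell libraries. The Ly6Chigh values include the difference between CON and stressed mice. Over all 68 libraries, the lowest of these pairs was Aldoa with Ldha, at 0.202, since the 2 genes order the cell types differently.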

How the data were processed

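Cell type-specific RNA-sequencing was performed by the authors on sorted blood leukocytes: total RNA was prepared with the SMARTer Stranded Total RNA-Seq Pico kit and sequenced as paired reads on an Illumina HiSeq machine. The submitters' processing notes name HISAT2, HTSeq and DESeq2 and the build mm10. The authors deposited 1 table of raw read counts per gene (52636 Ensembl identifiers, 70 libraries), and no other values of theirs were used. Counting error alone limits low counts, and reads are not independent molecules.

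The 10 genes and all gene lists were chosen with earlier results of these data known. Identifiers were matched to symbols through GENCODE M21 (52489 of 52636 matched). Aldoa has 2 identifiers there, and the one with the longer exons was used. No 2 libraries held identical values (171 pairs within groups). Libraries 52 and 70 were left out. Levels are CPM with TMM scaling over 68 libraries, and CPM per kilobase uses the union of exons.

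Tests used edgeR 4.0.16 (R 4.3.3) quasi-likelihood fits with filterByExpr, TMM scaling and robust dispersions: per cell type with the 3 conditions for stress, over 22 CON libraries for cell types, and over 12 group means for differences of stress effects. P-values were adjusted over all genes tested (Benjamini-Hochberg), 95% intervals were taken from the SE, and the threshold was 0.05, with an absolute log2 fold change over 1 for cell types. The groups share 1 dispersion per gene, although stressed Ly6Chigh libraries spread more than CON libraries. The stress fit was tested on simulated counts, where at 6 libraries a group it recovered 52 of 100 genes changed by 1 and 77 of 100 changed by 2 on the log2 scale in Ly6Chigh monocytes. It also called 5 unchanged genes. The simulation gave all groups the same dispersion and changed only well-counted genes, so it does not cover the wider spread of stressed mice. Alternatives were DESeq2 1.42.0, its size factors, no filter, fewer groups, all 70 libraries, dropped abundant genes, marker covariates, offsets for GC content and length, and leaving out each library.

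Named genes were all 10 genes in every comparison, up to 4 genes per list and contrast with an adjusted p below 0.05, by smallest p, the 2 genes of highest mean CPM per list between cell types, and the 2 closest genes by Pearson's r of mean CPM at least 10. Promoter windows are RefSeq's, on GRCm38.p6. The single-gene values of 1 marker gene are not reported here.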

Additional observations from a re-analysis of the deposited data

Results flagged for a closer look

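For 8 results, the effect of CSDS in SUS mice differed between Ly6Chigh monocytes and a lymphocyte type by the test of the difference itself in the fit of all 12 groups. Against B cells, the log2 fold changes differed by 1.09 for Aldoa, 1.08 for Pgk1, 1.08 for Pkm and 1.16 for Ldha. Against T cells, they differed by 0.95 for Aldoa, 0.78 for Pgk1, 0.78 for Pkm and 0.98 for Ldha, and in a fit of those 2 cell types alone 0 of these 4 passed (adjusted p of 0.0753 to 0.0970). The red cell markers, which moved with the stress groups in Ly6Chigh monocytes, were not adjusted for in these differences.

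In 10 of 120 combinations of gene and group, 1 library stood far from the others by Dixon's criterion, where chance gives about 1 in 20. In T cells of RES mice, library 61 was high in Hk2 (6.09 CPM, next 3.92 CPM) and in Ldha (287 CPM, next 209 CPM). In T cells of CON mice, library 59 was high in Aldoa (167 CPM, next 135 CPM). In B cells, library 38 of the CON group (3.24 CPM) and library 45 of the SUS group (4.35 CPM) were high in Hk3, and library 50 of the CON group (98.6 CPM) and library 51 of the SUS group (92.4 CPM) were high in Pfkl. In Ly6Clow monocytes of SUS mice, library 27 was low in Pfkl (43.1 CPM, next 52.0 CPM) and library 22 was high in Slc2a3 (45.4 CPM, next 22.7 CPM). In Ly6Chigh monocytes of CON mice, library 10 was high in Gapdh (57.6 CPM, next 40.2 CPM). Library 14 of the Ly6Chigh SUS group did not meet the criterion for any of the 10 genes.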

How the results depend on the processing

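The count of 5 genes that rose in Ly6Chigh monocytes of SUS mice became 0 with the red cell or the platelet covariate and 2 with a log2 fold change over 1 required. It stayed within 1.5 times under all other alternatives, and Aldoa, Pgk1, Pkm and Ldha passed without any 1 library. The count of 3 in RES mice became 0 with DESeq2 size factors in edgeR, with the red cell, platelet, neutrophil or hematopoietic progenitor covariate, with offsets for GC content and length, and with the fold threshold. Without single libraries it ran from 0 to 4, the lowest without CON library 1, 4, 7, 10, 13 or 16, SUS library 11, or RES library 9, 15 or 18, and 1 without SUS library 2 or 8. In Ly6Clow monocytes, the count of 0 became 1 by DESeq2 in SUS and in RES mice, and 0 to 1 in SUS mice without single libraries.

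In CON mice, with an adjusted p alone, 6 genes differed between the monocyte types, 8 between Ly6Chigh monocytes and T cells, 8 between Ly6Clow monocytes and B cells, 5 between Ly6Clow monocytes and T cells, and 3 between B and T cells. Between the monocyte types, the count was 1 without the low-count filter and 1 to 2 without single libraries (1 without Ly6Chigh library 7 or Ly6Clow library 21, 24 or 32). Between B and T cells it was 0 to 1 (1 without T cell library 56). The difference of the SUS effect between Ly6Chigh monocytes and T cells gave 0 genes in a fit of those cell types alone, and that of the RES effect against B cells gave 2 with libraries 52 and 70 kept. No cause of these shifts was tested. Of 580 values of single genes under alternatives, 70 lost and 14 gained the adjusted p threshold, and none of the called values reversed.

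No paired analysis was possible because the labels name no mouse and the groups share no replicate numbers. Covariates built from marker genes were chosen after the data were seen, except that for red cells. Depth limits Hk3 in lymphocytes, where libraries held 0 to 160 counts.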
